A study of Homo sapiens with 9 samples.

Results

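The cohesin subunits, their regulators and CTCF were 10 genes of the 60603 in the count table, taken by symbol: SMC1A, SMC3, RAD21, STAG1, STAG2, NIPBL, WAPL, PDS5A, PDS5B and CTCF. All 10 were found once in the table and all 10 passed the filter on low counts. The cells were TC32, an established Ewing sarcoma cell line whose EWS::FLI1 fusion protein drives the tumor, labelled WT for genotype and batch 1 in every library. The siEF group was plated on an siRNA that spans the fusion breakpoint, the siNEG group on a non-specific siRNA, and the Media group is labelled as receiving medium, all for 30 h with 3 biological replicates each. All groups share the cell line and the medium with serum and glutamine, so the values describe 1 cell line, 1 siRNA against the fusion and 1 time. The question was how the RNA of these genes differed once the fusion was silenced (siEF against siNEG) and whether the siRNA procedure alone was accompanied by a difference (siNEG against Media). The comparison of siEF with Media shares its libraries with both of these and is given beside them.

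Cohesin is a ring-shaped protein complex that holds sister chromatids together from replication to mitosis and extrudes DNA loops in interphase. SMC1A, SMC3 and RAD21 close the ring, and either STAG1 or STAG2 binds to it. NIPBL loads the ring and drives loop extrusion, WAPL releases it, and PDS5A and PDS5B bind RAD21 and serve in both release and maintenance. CTCF, a zinc finger protein, is the DNA-bound factor at which extruding cohesin stops, which sets the borders of many loops. STAG2 is recurrently mutated in Ewing sarcoma, and loops anchored by CTCF and cohesin are known to connect enhancers to promoters in these cells.

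Total expected counts were between 20727706 and 33134581 per library, and the member with the fewest counts in any library, STAG2, had 780. The 10 most abundant genes took 12.3% to 12.9% of the counts in siEF and 5.78% to 6.6% in the other libraries. Within a group, no pair of libraries agreed within counting error (chi-square per degree of freedom 3.57 to 23.2), and both of the largest values involved siNEG replicate 1. FLI1, part of which is in the targeted fusion transcript, was at 38.4, 35.5 and 39.4 CPM (counts per 1000000 counts of the TMM-scaled library) in siEF. It was between 48.0 and 48.6 CPM in siNEG, so siEF stood at -0.35 on the log2 scale (adjusted P = 2.88e-05, edgeR). In Media it was between 56.2 and 59.5 CPM, and siNEG was called lower than Media (-0.26, adjusted P = 0.00347, edgeR). The methods report a check of the silencing by qPCR with a 3-cycle change in expression, a different measure from these gene counts. By the gene counts, siEF kept 78.2% of the siNEG level of FLI1, a much smaller change. The paper treats these cells as not expressing FLI1 apart from the fusion. The gap between the measures was not tested. Of the 4 Ewing sarcoma markers, CD99, the surface marker of the tumor, was between 157 and 226 CPM in all 9 libraries, higher in siEF than in siNEG by 0.23 (adjusted P = 0.00123, edgeR) and lower in siNEG than in Media (-0.34, adjusted P = 0.000363, edgeR). NR0B1, a target induced by the fusion, was at -2.97, STEAP1 at -2.29 and NKX2-2 at -1.44 in siEF against siNEG, and all 3 were called lower. In siNEG against Media, NR0B1 (-0.37, adjusted P = 0.00105, edgeR) and NKX2-2 (-0.46, adjusted P = 0.000118, edgeR) were also called lower. STEAP1 did not pass there (-0.27, adjusted P = 0.0128, edgeR). Of the 7 markers of other cell types, CD3E had 0 counts in every library, ALB at most 1 and PTPRC at most 6, and the 4 tested summed to 5.13 to 5.93 CPM in siEF, 3.72 to 5.15 in siNEG and 4.74 to 5.76 in Media, with opposite differences within that sum. DES, the muscle filament gene, rose from 11, 5 and 9 counts in siNEG to 80, 58 and 77 in siEF (log2 fold change 3.41, adjusted P = 1.67e-07, edgeR), and PECAM1, an endothelial marker, fell from 135, 117 and 105 counts to 30, 40 and 51 (-1.22, adjusted P = 8.43e-05, edgeR). EPCAM, an epithelial marker, had 13, 9 and 9 counts in siEF, 1, 3 and 0 in siNEG and 13, 10 and 13 in Media. At these low counts it was called higher in siEF than in siNEG (3.17, adjusted P = 0.000565, edgeR). It was also called lower in siNEG than in Media (-3.145, adjusted P = 0.0039, edgeR). CDH5, an endothelial marker, had 19, 14 and 18 counts in siEF and 16, 2 and 2 in siNEG (adjusted P = 0.0262, edgeR), which did not pass. The part of these markers in the differences below was not tested. In bulk samples, fewer cells of a type and less RNA per cell cannot be told apart.

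The sequences before the start sites are shown for SMC1A, the member with the largest fall, and for the STAG pair, whose members moved in opposite directions. RefSeq start sites on GRCh38.p14 were matched for 9 of the 10 members, with 12 windows of 250 bases in all, and RAD21 had no entry. Capitals mark GGAA or its reverse complement TTCC, the core read by ETS factors such as FLI1, and every window is written 5′ to 3′ on the strand of the gene.
SMC1A, chrX:53422729-53422978, minus strand: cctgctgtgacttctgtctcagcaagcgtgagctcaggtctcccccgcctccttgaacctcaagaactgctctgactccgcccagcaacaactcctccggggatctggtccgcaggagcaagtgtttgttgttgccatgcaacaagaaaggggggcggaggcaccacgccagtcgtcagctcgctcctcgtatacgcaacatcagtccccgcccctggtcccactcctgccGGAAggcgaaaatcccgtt
STAG1, chr3:136752379-136752628, minus strand: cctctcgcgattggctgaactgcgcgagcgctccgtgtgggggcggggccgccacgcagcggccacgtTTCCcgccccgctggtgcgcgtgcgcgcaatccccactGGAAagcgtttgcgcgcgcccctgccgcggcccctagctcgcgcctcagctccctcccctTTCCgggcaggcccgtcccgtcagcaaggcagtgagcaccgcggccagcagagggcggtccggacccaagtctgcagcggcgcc
STAG2, first start, chrX:123960310-123960559, plus strand: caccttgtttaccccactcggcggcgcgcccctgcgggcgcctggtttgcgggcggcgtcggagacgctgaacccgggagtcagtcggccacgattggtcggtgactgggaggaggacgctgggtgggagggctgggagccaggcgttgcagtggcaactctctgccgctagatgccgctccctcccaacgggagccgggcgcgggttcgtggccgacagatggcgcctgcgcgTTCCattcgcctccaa
STAG2, second start, chrX:123961062-123961311, plus strand: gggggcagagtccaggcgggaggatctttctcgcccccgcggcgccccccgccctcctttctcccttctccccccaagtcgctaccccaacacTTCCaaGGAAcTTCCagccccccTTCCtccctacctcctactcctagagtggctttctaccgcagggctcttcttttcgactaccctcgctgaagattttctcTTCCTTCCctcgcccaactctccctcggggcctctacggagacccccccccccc
The matches found were a description of letters and not of binding. Searched on both strands, GGAA stood in 92.7% of the 35116 RefSeq promoter windows of the same length, with a median of 3 matches. It was matched 1 time in the SMC1A window shown, 3 times in STAG1, 1 time at the first STAG2 start and 6 times at the second. EWS::FLI1 is known to activate genes through GGAA microsatellites. Only the short tandem repeat GGAAGGAA, which contains GGAA, was searched for, and a match to it is not in itself a microsatellite. GGAAGGAA stood in 3.06% of all windows and, among the 12 windows of the members, only at the second start of STAG2. The longer ETS form CCGGAA, which also contains GGAA, stood in 14.5% of all windows and in those of SMC1A, STAG1 and NIPBL. Of the letter patterns read by E2F factors, TTTCCCGC (1.39% of all windows, overlapping TTCC) stood in STAG1 and at the other SMC1A start, and TTTGGCGC (0.55%) in NIPBL and at the third STAG2 start. Of the members with windows, PDS5B alone held none of these letter patterns.

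Silencing of the fusion was accompanied by lower RNA of most of the complex and higher RNA of STAG2. At an adjusted P under 0.01 in edgeR's quasi-likelihood test over 16093 genes, 7 of the 10 members were lower in siEF than in siNEG (SMC1A, PDS5A, RAD21, CTCF, SMC3, PDS5B and STAG1), beside 31.7% of all genes tested. STAG2 alone was higher, beside 33.6% of all genes, and WAPL and NIPBL did not pass. The median log2 fold change of the members was -0.56, against 0.05 for all genes. The siEF and siNEG libraries did not overlap in 9 of the 10 members, as in 76.9% of all genes. Past the log2 fold change of 1 that the study also required, 1 member was lower (SMC1A, beside 11.7% of all genes) and 0 were higher (17.1% of all genes).

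**Figure D1:**
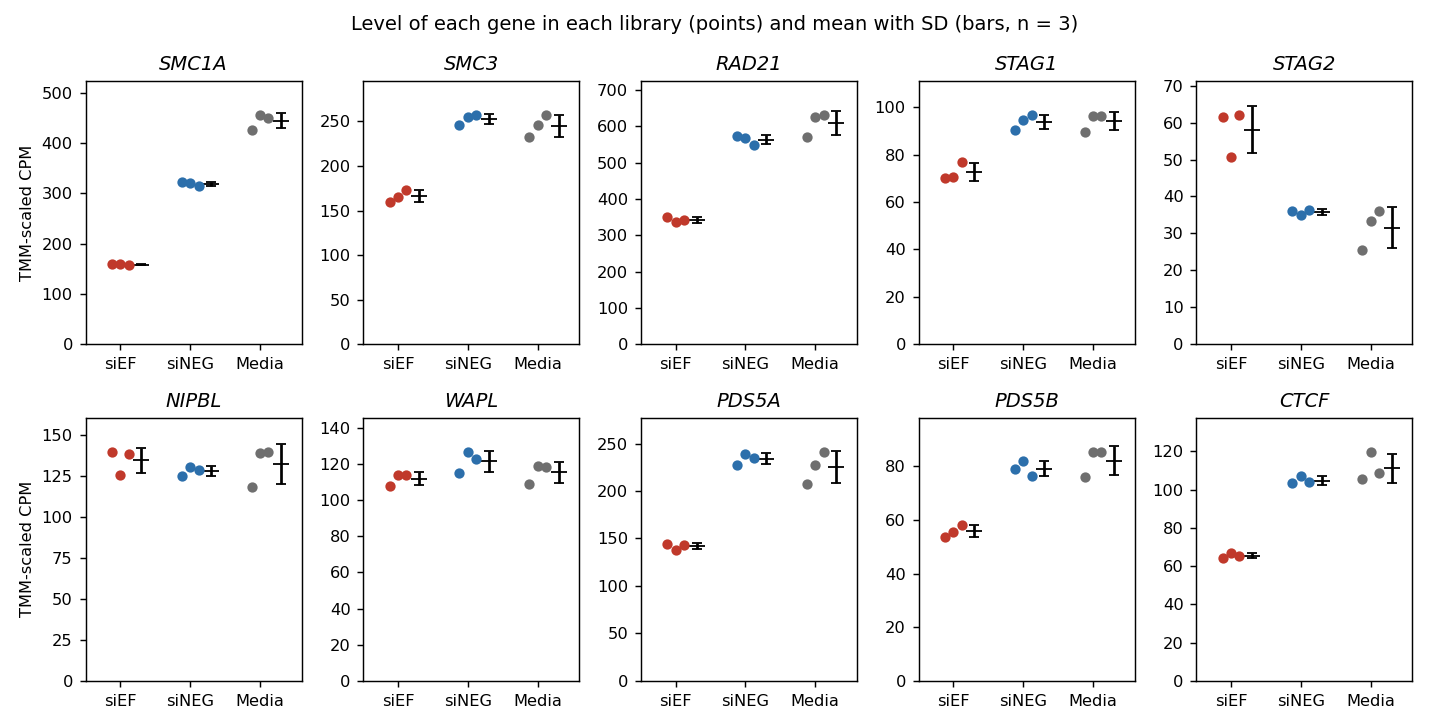
TMM-scaled CPM (vertical axes from 0) of each of the 10 genes in each of the 9 libraries, with points for libraries and bars for the mean and SD of 3. The siEF points lie below all siNEG points in 8 panels and above them for STAG2, and the NIPBL points overlap.

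Among the ring subunits, SMC1A (ENSG00000072501, chromosome X, 53374149 to 53422728, GRCh38), the SMC arm that pairs with SMC3, fell the most. It was at 159, 159 and 157 CPM in siEF replicates 1, 2 and 3, at 322, 320 and 315 CPM in siNEG, and at 427, 455 and 451 CPM in Media. The 3 groups were separate from each other, in the order siEF, siNEG, Media, and the siEF libraries were close to each other. Relative to siNEG, siEF was at -1.01 on the log2 scale (SE 0.04, adjusted P = 1.16e-12, edgeR), which left 49.7% of the siNEG level. It lay at the cut-off of -1: with upper quartile scaling it was -0.92 and with at least 10 counts required in every library -0.99, so that 0 members passed the cut-off there, although the adjusted P stayed under 0.01. SMC1A was also the single member called between the control groups, at -0.48 in siNEG against Media (SE 0.04, adjusted P = 5.64e-07, edgeR), and against Media the siEF level was -1.49 (adjusted P = 1.02e-14, edgeR).

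SMC3 (ENSG00000108055, chromosome 10, 110567684 to 110606048), the other SMC arm and the one acetylated to establish cohesion, was at 160, 165 and 173 CPM in siEF. It was at 246, 255 and 257 CPM in siNEG and at 232, 246 and 257 CPM in Media, so the controls overlapped and siEF lay below both. The log2 fold change was -0.60 (SE 0.05, adjusted P = 5.22e-09, edgeR) against siNEG and -0.56 against Media. RAD21 (ENSG00000164754, chromosome 8, 116845934 to 116874776), the kleisin that closes the ring and is cut by separase, was at 351, 335 and 343 CPM in siEF, at 574, 568 and 549 CPM in siNEG and at 572, 625 and 630 CPM in Media. All siEF libraries were below all controls, and siEF stood at -0.72 on the log2 scale (SE 0.05, adjusted P = 4.55e-10, edgeR) relative to siNEG. The difference between siNEG and Media was -0.11 (adjusted P = 0.11, edgeR), and those libraries overlapped. RAD21 shares 142 exonic bases with UTP23 on the other strand, and UTP23 was at -0.13 (adjusted P = 0.0355, edgeR). The strand setting of the counting is not given in the sources used here.

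The STAG pair diverged. STAG1 (ENSG00000118007, chromosome 3, 136336236 to 136752403) was at 70.4, 70.6 and 76.9 CPM in siEF, at 90.5, 94.5 and 96.6 CPM in siNEG and at 89.7, 96.5 and 96.2 CPM in Media. The siEF libraries were the lowest and the controls overlapped, and the log2 fold change against siNEG was -0.37 (SE 0.05, adjusted P = 9.21e-06, edgeR). STAG2 (ENSG00000101972, chromosome X, 123960212 to 124422664) was at 61.5, 50.8 and 62.0 CPM in siEF, at 36.1, 35.0 and 36.3 CPM in siNEG and at 25.5, 33.3 and 36.0 CPM in Media. Every siEF library was above every control, with siEF replicate 2, the shallowest library, the lowest of the 3. The log2 fold change was 0.70 (SE 0.10, adjusted P = 8.9e-06, edgeR) against siNEG and 0.88 (adjusted P = 6.84e-07, edgeR) against Media, whereas siNEG against Media was 0.18 with a 95% interval from -0.04 to 0.40. That control difference rested on Media replicate 1, the lowest library, without which it was 0.05, and over all alternatives it ran from 0.05 to 0.28. STAG3, the meiotic STAG, named after its values were seen, was at most 0.70 CPM in any library.

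Overlapping genes touch both. STAG1 shares 1661 exonic bases with PCCB on the other strand, and PCCB was also lower, by a log2 fold change of -0.19 (adjusted P = 0.0069, edgeR); its part in the STAG1 value was not tested. STAG2 shares 241 exonic bases with TENM1 on the other strand. TENM1 was lower, from 186, 217 and 211 CPM in siNEG to 86.8, 82.7 and 89.4 CPM in siEF, a log2 fold change of -1.24 (adjusted P = 1.96e-10, edgeR). The part of TENM1 in the STAG2 value was not tested.

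Within a library, the ratio of STAG2 to STAG1 needs no scaling between libraries. The log2 ratio was -0.19, -0.48 and -0.31 in siEF, -1.33, -1.43 and -1.41 in siNEG, and -1.82, -1.54 and -1.42 in Media. The siEF libraries were all above the others, and the mean ratio was 2.09-fold higher in siEF than in siNEG (exact permutation test, two-sided, n = 3 and 3, p = 0.1, the smallest that 3 against 3 can give; adjusted p = 0.15 over 12 ratio comparisons). From Media to siNEG the log2 ratio was higher by 0.20 with overlapping libraries (exact permutation p = 0.2), and by 0.09 without Media replicate 1. Per kilobase of canonical transcript, STAG2 made up 43.9% ± 2.41 of the summed STAG1 and STAG2 level in siEF, 27.2% ± 0.788 in siNEG and 24.6% ± 2.59 in Media (SD, n = 3). STAG1 stayed the higher of the pair in all 9 libraries.

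**Figure D2:**
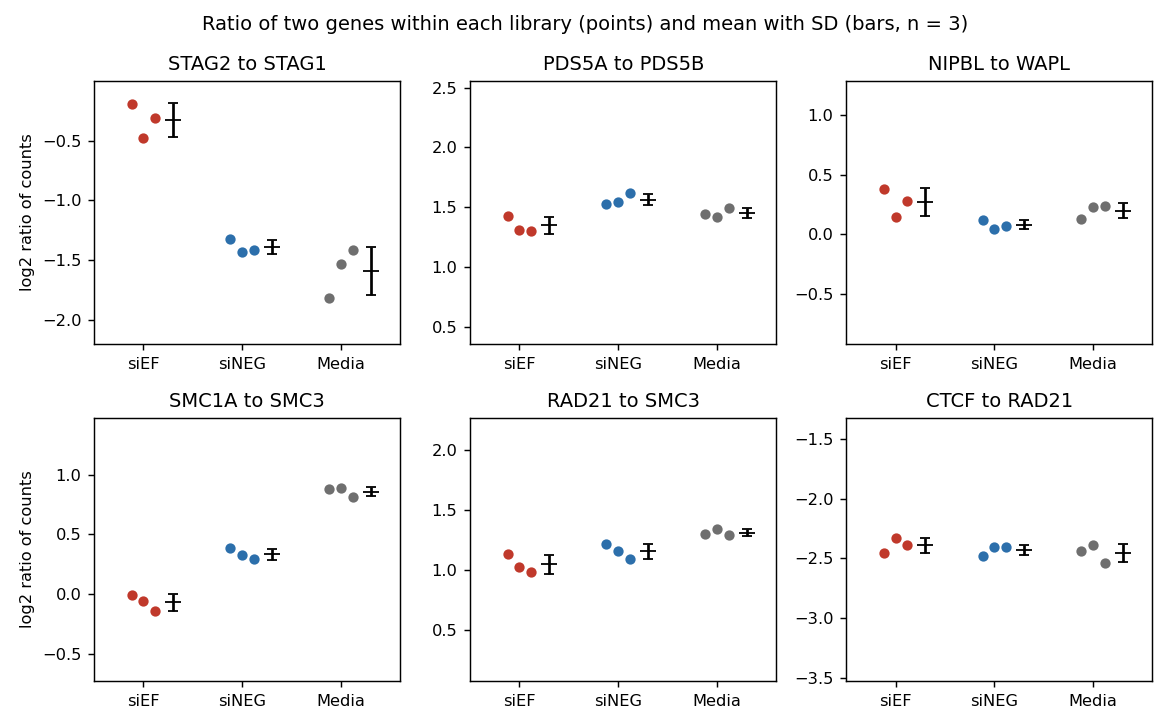
Log2 ratio of the counts of 2 genes within each library, with points for libraries and bars for the mean and SD of 3, and every vertical axis spanning the same number of log2 units. STAG2 to STAG1 is higher in siEF than in the controls, SMC1A to SMC3 steps down from Media to siNEG to siEF, and CTCF to RAD21 overlaps among the groups.

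Of the other pairs, SMC1A to SMC3 was -0.01, -0.05 and -0.14 in siEF, 0.39, 0.33 and 0.29 in siNEG and 0.88, 0.89 and 0.81 in Media. The groups were again separate, with a step of -0.52 from Media to siNEG and of -0.40 from siNEG to siEF (exact permutation p = 0.1 and adjusted p = 0.15 for each). The 2 SMC arms enter the ring in equal number. RAD21 to SMC3 differed by -0.11 between siEF and siNEG with overlapping libraries (exact permutation p = 0.2), and CTCF to RAD21 by 0.04 (exact permutation p = 0.4).

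NIPBL (ENSG00000164190, chromosome 5, 36876769 to 37066413), the loader, was at 140, 126 and 138 CPM in siEF, at 125, 131 and 129 CPM in siNEG and at 118, 139 and 140 CPM in Media. The groups overlapped, and siEF differed from siNEG by a log2 fold change of 0.07 with a 95% interval from -0.06 to 0.20 (adjusted P = 0.297, edgeR). WAPL (ENSG00000062650, chromosome 10, 86435256 to 86521792), the release factor, was at 108, 114 and 114 CPM in siEF, at 115, 127 and 123 CPM in siNEG and at 109, 119 and 118 CPM in Media. The siEF libraries were below the siNEG libraries and overlapped Media, and the log2 fold change against siNEG was -0.12 with a 95% interval from -0.23 to -0.01 (adjusted P = 0.0483, edgeR), which did not pass. Without siNEG replicate 1 it was -0.19 (adjusted P = 0.00633, edgeR) and passed. The intervals of both genes exclude a fall of the size seen for STAG1. The log2 ratio of NIPBL to WAPL was 0.19 higher in siEF than in siNEG and 0.12 lower in siNEG than in Media, each without overlap (exact permutation p = 0.1 for each).

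PDS5A (ENSG00000121892, chromosome 4, 39822863 to 39977956) was at 144, 138 and 143 CPM in siEF, at 228, 239 and 235 CPM in siNEG and at 207, 228 and 241 CPM in Media. PDS5B (ENSG00000083642, chromosome 13, 32586452 to 32778019), its paralog, was at 53.6, 55.6 and 58.1 CPM in siEF, at 78.9, 82.1 and 76.5 CPM in siNEG and at 76.0, 85.3 and 85.4 CPM in Media. Both fell in siEF, with log2 fold changes of -0.72 (SE 0.05, adjusted P = 1.87e-09, edgeR) for PDS5A and -0.51 (SE 0.06, adjusted P = 7.48e-07, edgeR) for PDS5B, and their controls overlapped. The log2 ratio of PDS5A to PDS5B was at most 1.43 in siEF and at least 1.53 in siNEG, so these groups did not overlap (difference -0.22, exact permutation p = 0.1). In Media the lowest library was at 1.42, so Media overlapped siEF, and all of its libraries lay below siNEG (siNEG minus Media 0.11, exact permutation p = 0.1).

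CTCF (ENSG00000102974, chromosome 16, 67562467 to 67639177) was at 64.2, 66.9 and 65.5 CPM in siEF, at 103, 107 and 104 CPM in siNEG and at 105, 120 and 109 CPM in Media. The siEF libraries lay within 3 CPM of each other and below all controls, with log2 fold changes of -0.68 (SE 0.05, adjusted P = 5.69e-09, edgeR) against siNEG and -0.76 against Media. CTCFL, its germline paralog, had at most 2 counts in any library and was not tested. The 2 genes whose profiles over the 9 libraries were closest to that of CTCF were EPB41 and MYO10 (Euclidean distance of centred log2 CPM 0.108 and 0.11), and those closest to STAG2 were ATXN3 and BMPR2 (0.208 and 0.216).

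The controls set the scale for these differences. Between siNEG and Media, 1 of the 10 members was lower (SMC1A, beside 5.96% of all genes) and 0 were higher (3.83% of all genes) in edgeR's test. DESeq2 gave the same 2 counts. Before adjustment, RAD21 was also lower and 0 members were higher at a P under 0.05. The median of the members was -0.03, against -0.00 for all genes. In siEF against Media, which shares libraries with both other comparisons, the members called were again 7 lower (32.3% of all genes) and STAG2 higher (33.6%), with SMC1A below -1 (12.5% of all genes) and a median of -0.56.

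**Figure D3:**
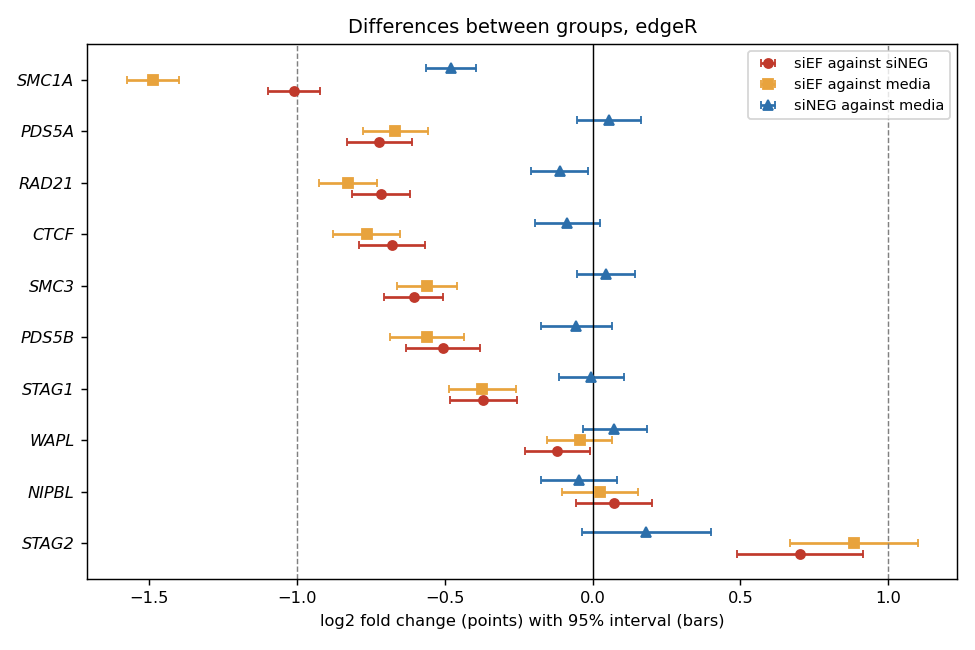
Log2 fold change of each of the 10 genes (horizontal axis) in the 3 comparisons from edgeR, with 95% intervals as bars and dashed lines at -1 and 1. In siNEG against Media the point of SMC1A lies at -0.48 and those of the other 9 genes between -0.11 and 0.18, whereas both comparisons of siEF place the 7 genes called lower below 0 and STAG2 above it.

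Levels of different genes were compared as CPM per kilobase of canonical transcript. In siNEG the order was RAD21 at 154 ± 3.59, SMC3 at 45.7 ± 0.989, SMC1A at 32.8 ± 0.388, PDS5A at 32.8 ± 0.817, CTCF at 27.5 ± 0.566, WAPL at 19.2 ± 0.918, STAG1 at 15.5 ± 0.512, NIPBL at 12.3 ± 0.271, PDS5B at 10.6 ± 0.377 and STAG2 at 5.79 ± 0.117 CPM per kilobase (SD, n = 3). Only SMC1A and PDS5A overlapped as neighbours. In Media, RAD21 led at 166 ± 8.83 and STAG2 was last at 5.11 ± 0.883, SMC1A was at 45.7 ± 1.56 and overlapped SMC3, and the pairs PDS5A and CTCF and NIPBL and PDS5B also overlapped. In siEF, by canonical transcript, SMC1A was the sixth gene in the order at 16.3 ± 0.137, below WAPL (17.7 ± 0.581) and CTCF (17.2 ± 0.351), which overlapped each other, and PDS5B took the last place at 7.46 ± 0.298 with STAG2 just above it at 9.4 ± 1.02. NIPBL and STAG1 overlapped there. The second length was the merged exons of the transcripts deposited with the counts of each gene, not of all annotated transcripts. With it, 5 genes moved by over 1.5 times in siNEG, with RAD21 at 65.7, PDS5A at 19.2, CTCF at 10.4, PDS5B at 6.0 and STAG2 at 3.47 CPM per kilobase. SMC1A was then the fourth gene in siEF at 15.1, above PDS5A (11.6) and CTCF (6.48). The distance of RAD21 from the rest and the places of SMC1A, PDS5A and CTCF thus depend on the length used. With both of these lengths RAD21 kept the first place in all 3 groups, STAG2 the last in siNEG and Media, and PDS5B the last in siEF. Lengths over all annotated transcripts were not tried.

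**Figure D4:**
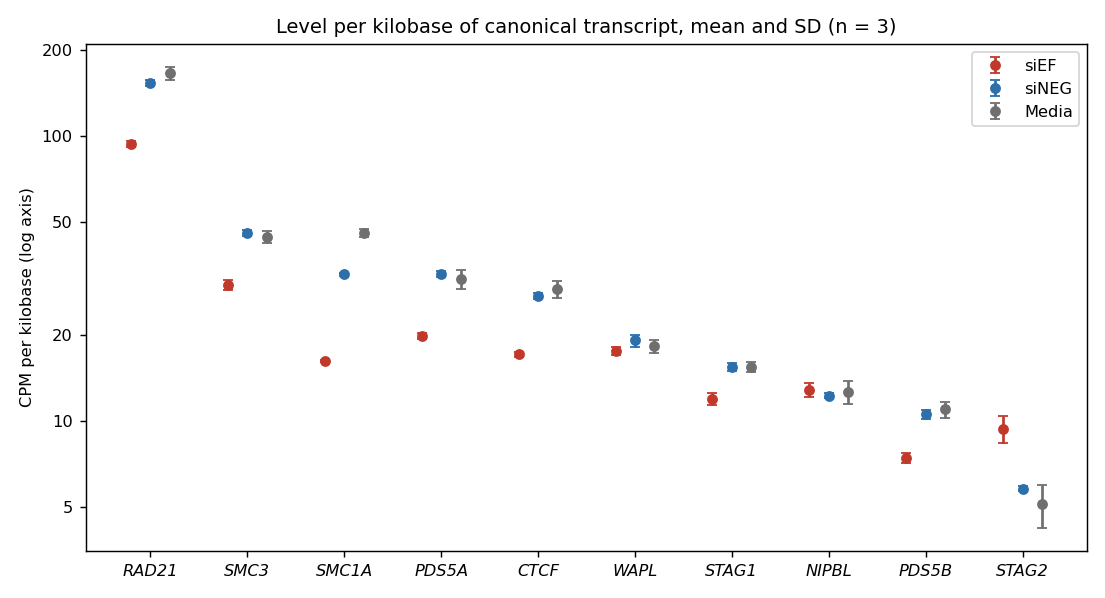
Level of each gene in CPM per kilobase of canonical transcript (log axis) by group, as the mean and SD of 3 libraries, with genes ordered by the siNEG mean. SMC1A drops from 45.7 in Media to 32.8 in siNEG and 16.3 in siEF, while STAG2 rises from 5.79 in siNEG to 9.4 in siEF.

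The genes that act on cohesin or resemble it were read in the same fit. Of 41 listed genes, 38 passed the filter, and 26 were lower (31.7% of all genes tested) and 5 higher (33.6% of all genes) in siEF than in siNEG at an adjusted P under 0.01 in edgeR. Of these, 19 were below -1 (11.7% of all genes), and the median of the 38 was -0.97, against 0.05 for all genes. SMC1B and RAD21L1, meiotic paralogs with at most 5 and 4 counts, and CTCFL were not tested. Between siNEG and Media, 1 was lower (SMC2, -0.19) and 1 higher (NCAPD2, 0.25), and neither call was stable. Without Media replicate 1 the count of lower genes was 2 and without any other single library 0, and without siNEG replicate 2 or 3 the count of higher genes was 0.

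The factors that protect and cleave cohesin in mitosis were lower in 5 of 5, all below -1, beside 31.7% of all genes lower and 11.7% below -1. PLK1, the kinase that strips cohesin from chromosome arms, went from 224, 221 and 220 CPM in siNEG to 37.4, 40.1 and 34.8 CPM in siEF (log2 fold change -2.57, adjusted P = 5.4e-16, edgeR). Its drop was the largest of the 38. PTTG1 (securin, -1.65), SGO1 and SGO2 (the shugoshins that guard centromeric cohesin, -1.36 and -1.26) and ESPL1 (separase, which cuts RAD21, -1.05) also passed -1. Of the replication-coupled cohesion factors, 6 of 7 were lower, beside the same 31.7%, and 1 higher. TIPIN, of the fork protection complex, was at 29.4, 29.4 and 28.7 CPM in siNEG and 6.4, 6.47 and 5.96 CPM in siEF (-2.22), followed by WDHD1 (-1.59), CHTF18 (-1.58), DSCC1 (-1.47) and TIMELESS (-1.06). CHTF8, the small partner of CHTF18 and DSCC1 in the clamp loader that acts in cohesion, was higher instead, at 0.40 (adjusted P = 1.89e-05, edgeR).

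The acetylation cycle and the loader partner were mixed. ESCO2, the acetyltransferase that marks SMC3 in S phase, was at 47.6, 47.8 and 44.8 CPM in siNEG and at 12.1, 10.7 and 10.6 CPM in siEF (-2.06, adjusted P = 8.85e-13, edgeR), and CDCA5 (sororin, which counters WAPL) was at -1.48. ESCO1, the paralog that acts outside S phase, was higher at 0.31 (adjusted P = 0.00262, edgeR) and was named after its value was seen; without siEF replicate 1 or 3 or siNEG replicate 1 or 3 it did not pass (0.27 to 0.29, adjusted P = 0.0129 to 0.0172, edgeR). MAU2, the partner that NIPBL binds to load cohesin, rose from 33.1, 32.3 and 32.6 CPM in siNEG to 55.4, 57.2 and 53.5 CPM in siEF (0.76, adjusted P = 2.23e-09, edgeR), while NIPBL itself did not pass. HDAC8, the SMC3 deacetylase, named after its value was seen, was at -0.13 (adjusted P = 0.115, edgeR).

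The related SMC complexes were mostly lower. In condensin, which compacts mitotic chromosomes, 7 of 8 genes fell, beside 31.7% of all genes, led by NCAPD3 (from 179, 182 and 181 CPM in siNEG to 45.6, 45.7 and 39.9 CPM in siEF, -2.05) and NCAPH (-1.71), with NCAPG2, SMC2, NCAPH2 and NCAPG between -1.38 and -1.25 and SMC4 at -0.72. NCAPD2, the condensin I counterpart of NCAPD3, was higher at 0.21 (adjusted P = 0.000733, edgeR), a call lost without siNEG replicate 1 (0.15, adjusted P = 0.0178, edgeR). In SMC5/6, a DNA repair complex, SMC6 (-1.34), NSMCE4A (-0.87) and SMC5 (-0.51) were lower and 4 of 7 did not pass. Of the other looping and boundary factors, ZNF143 (-0.87), PATZ1 (-0.28) and YY1 (-0.22) were lower and MAZ (0.13, adjusted P = 0.0483, edgeR) did not pass; PATZ1 and YY1, like NSMCE4A, SMC5, SMC4 and MAZ, were named after their values were seen. PATZ1 did not pass without siEF replicate 1, siEF replicate 3 or siNEG replicate 3 (-0.27 to -0.19, adjusted P = 0.0127 to 0.019, edgeR), and neither PATZ1 nor YY1 passed with upper quartile scaling. MAZ was called higher with upper quartile scaling (0.22, adjusted P = 0.00257, edgeR) and with only the 6 libraries compared (0.13, adjusted P = 0.00917, edgeR). REC8, the meiotic counterpart of RAD21, rose by 0.72 (adjusted P = 7.8e-08, edgeR).

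**Figure D5:**
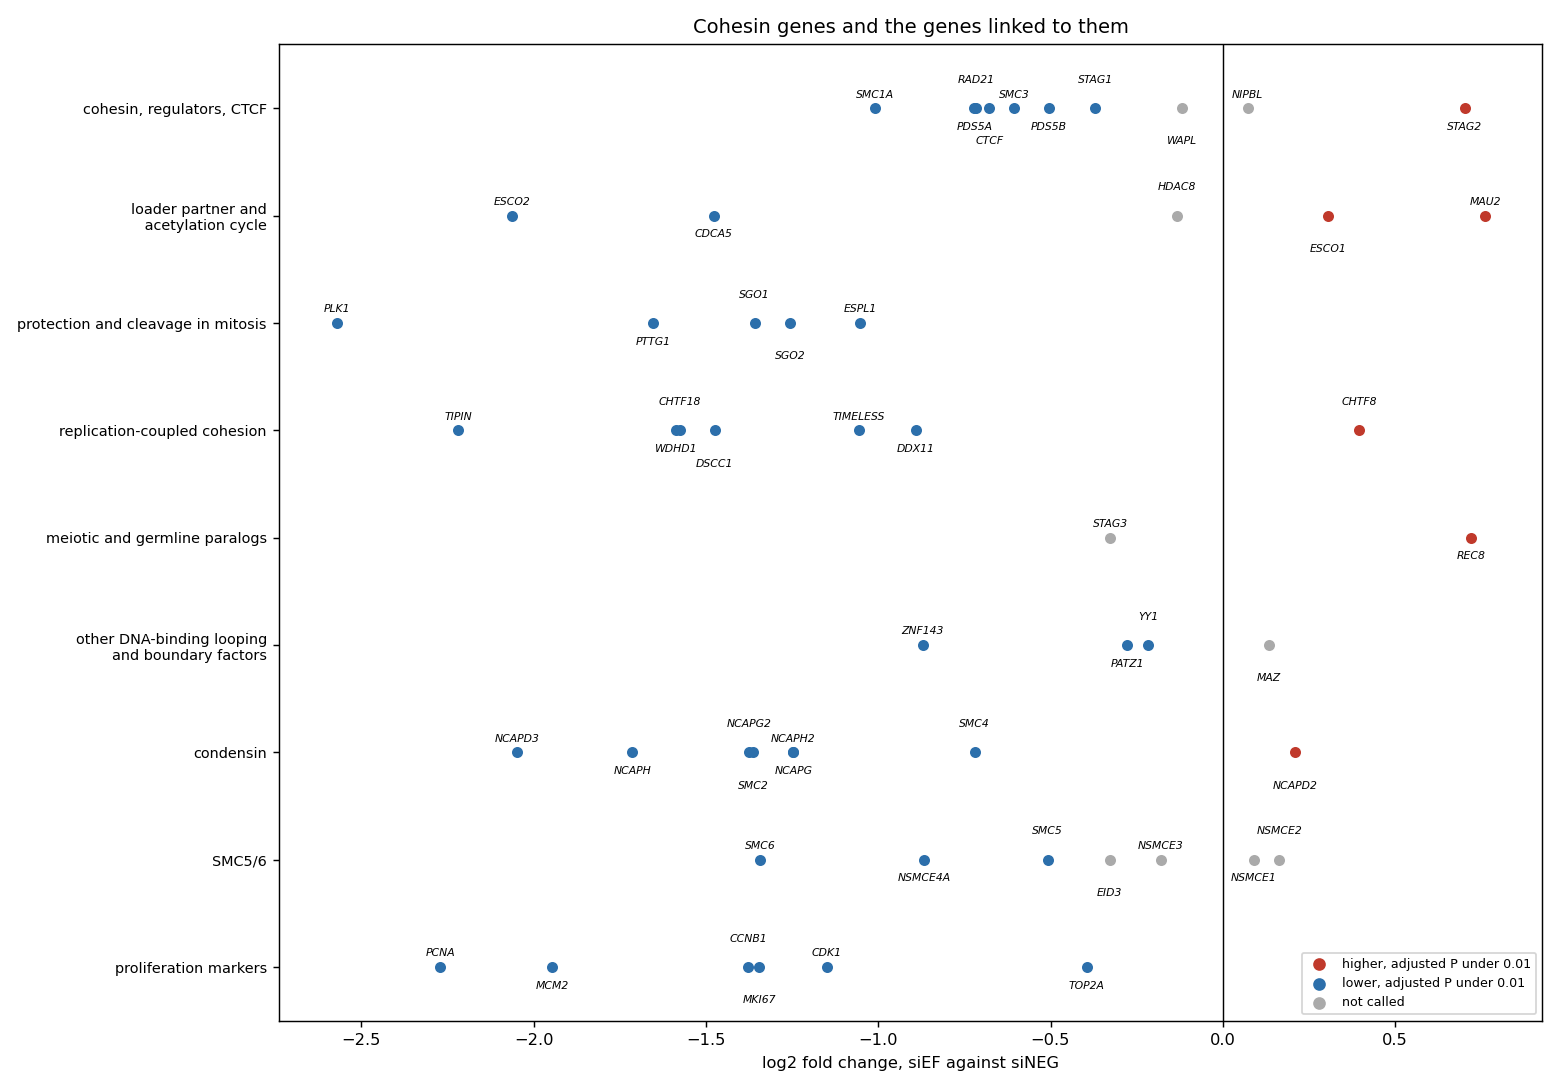
Log2 fold change of siEF against siNEG (horizontal axis) for the 10 cohesin and CTCF genes in the top row and for the linked genes and proliferation markers by group below, coloured by the call at an adjusted P under 0.01. The mitotic group lies wholly below -1 with PLK1 at -2.57, and STAG2, MAU2 and REC8 stand near 0.7 on the other side of 0.

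Markers of proliferation were lower in siEF as well. All 6 listed were lower in siEF than in siNEG, beside 31.7% of all genes tested. They were PCNA (-2.27), MCM2 (-1.95), CCNB1 (-1.38), MKI67 (-1.35), CDK1 (-1.15) and TOP2A (-0.39). Their summed level was 1150 to 1195 CPM in siEF, 2360 to 2454 CPM in siNEG and 2449 to 2652 CPM in Media. Between siNEG and Media, 1 of the 6 was called lower, CCNB1 (-0.30, adjusted P = 0.000317, edgeR). MKI67 did not pass there (-0.23, adjusted P = 0.0184, edgeR). The part of these markers in the differences of the cohesin genes and of the linked genes was not tested.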

How the data were processed

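RNA of 9 libraries of TC32 cells was sequenced. According to the methods and the submitters' processing notes, alignment was to hg38 with STAR 2.7.1a and quantification with RSEM 1.3.1. The authors deposited an expected count per gene and library, neither scaled for depth nor pooled. The annotation release and strand setting are not given in the sources used here, and the labels name polyA RNA together with a small RNA library kit. All 9 columns were used.

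After rounding to whole numbers, filterByExpr left 16093 genes. A single model with a mean per group was fitted to the 9 libraries with edgeR 4.0.16 (R 4.3.3) after TMM scaling, and its quasi-likelihood test was followed by Benjamini-Hochberg adjustment over these genes and calls at an adjusted P under 0.01. SE was derived from the fold change and its F statistic, and CPM use TMM-scaled library sizes. Ratios within a library were compared by exact two-sided permutation tests (scipy 1.17.1). Positions and lengths are from GENCODE release 44, and promoter windows from RefSeq on GRCh38.p14. The fit and the permutation test were tested on simulated data.

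Named were the 10 members, FLI1, the proliferation markers, in each linked group the largest called rise and fall and every linked gene past a log2 fold change of 1, and the 2 profiles closest to STAG2 and to CTCF. Cell type markers and UTP23, PCCB and TENM1, which share exonic bases with a member, were also named, and further linked genes were named after their values were seen. Other genes shared exonic bases too, among them RIBC1 with SMC1A (39 bases, mean count 31.6 per library). A noncoding gene shared 1326 with CTCF (mean count 0.0). The members and lists were chosen with earlier results of these data known. Alternatives were DESeq2 1.42.0, upper quartile or RLE scaling, a minimum of 10 counts in each library or no filter, a fit to the 6 libraries of the comparison, unrounded counts, a replicate block, and leaving out each library. Replicates are labelled biological, and what they share is not given.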

Additional observations from a re-analysis of the deposited data

How the results depend on the processing

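The 10 members gave 7 lower and 1 higher in siEF against siNEG, and against Media, under every alternative, except that WAPL made 8 lower without siNEG replicate 1 (7 to 8 over the libraries left out). The count of members below -1, an alternative chosen after seeing the data, was 0 with upper quartile scaling and with at least 10 counts in every library. Upper quartile scaling moved the median of all genes in siEF against siNEG from 0.05 to 0.13. The replicate numbers did not pair the libraries (correlation of deviations -0.091 to 0.042 over 9 same-numbered pairs); with the replicate block SMC1A was -1.01 (adjusted P = 3.15e-11, edgeR), and the block changed no count by over 1.5 times. Linked genes higher in siEF than in siNEG were 3 to 5 over the libraries left out, with 3 without siNEG replicate 1. Their count was 7 with upper quartile scaling and 6 with only the 6 libraries compared. Linked genes lower in siNEG than in Media were 1, then 0 with RLE size factors, upper quartile scaling and only the 6 libraries compared, 2 with DESeq2 and with no filter on low counts, and 0 to 2 over the libraries left out, where those higher were 0 to 1 (0 without siNEG replicate 2 or 3). Small differences changed sign, and the cause was not tested. STAG1 in siNEG against Media became 0.009 with upper quartile scaling, 0.002 with no filter, 0.008 with at least 10 counts, 0.035 without siNEG replicate 1, and 0.014 and 0.011 without Media replicate 2 and 3, within -0.038 to 0.035 over the libraries left out. PDS5A there became -0.003 without Media replicate 1 (up to 0.105 without replicate 3), and the CTCF to RAD21 ratio ranged from -0.015 (without Media replicate 3) to 0.061. In siEF against Media, NIPBL became -0.009 with no filter, -0.003 without siEF replicate 1 and -0.058 without Media replicate 1 (up to 0.067 without siEF replicate 2), and WAPL 0.055 with upper quartile scaling. With 3 libraries a group, the exact tests of ratios cannot fall below p = 0.1, and gene-level counts do not separate isoforms.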
